A study of Nannochloropsis oceanica with 18 samples.

Results

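In Nannochloropsis oceanica, libraries labelled NO07G02030 knockout (KO) were set against libraries labelled overexpression of the same nuclear gene (OE), with the question of which transcript differences appeared at both light levels. The comparison used 12 of the 18 libraries of the study, 6 KO and 6 OE, chosen by their strain labels. All strains carry the background IMET1, and the labels give the cell type as Colonial. Each strain was grown for 8 days in shaken flasks at 25 °C under an illumination of about 50 (normal light, NL) or about 300 (high light, HL) µmol photons m-2 s-1, which gave the groups NL_KO, NL_OE, HL_KO and HL_OE with 3 biological replicates each. The 6 wild-type (WT) libraries, 3 at each light, were used for levels only. How the strains were made, and how many lines each label covers, is not given in the sources at hand.

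Nannochloropsis oceanica is a single-celled marine alga that stores oil and is grown as a model of lipid production. Its plastid descends from a red alga and keeps its own genome, which encodes photosystem subunits, the large subunit of Rubisco, an RNA polymerase, ribosomal proteins and several assembly factors. The mitochondrial genome encodes subunits of the respiratory complexes, of the ATP synthase and of the ribosome. All other proteins of both organelles are encoded in the nucleus and imported. The deposited tables name organelle genes by symbol and nuclear genes by an ID alone, so nuclear genes are given without a role.

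The transcript of NO07G02030 did not show the difference that the labels name. It stood at 34.3 ± 12.8 CPM in NL_KO and 38.7 ± 2.25 in NL_OE (CPM, counts scaled to a total of 1000000 per library; mean ± SD, n = 3), and at 37.2 ± 5.59 CPM in HL_KO and 36.5 ± 1.74 in HL_OE. In NL_KO the 3 libraries held 48.8, 25.0 and 29.0 CPM, in NL_OE 36.5, 38.6 and 41.0, in HL_KO 39.3, 41.4 and 30.9, and in HL_OE 38.4, 36.3 and 34.9. The ranges of KO and OE overlapped at both lights. WT stood at 44.5 ± 1.92 CPM in NL_WT, with each library above every NL_OE library. In HL_WT it stood at 27.4 ± 6.09 CPM, with each library below every HL_OE library. With light as a covariate the log2 fold change KO minus OE was -0.09 (SE 0.16, 95% interval -0.43 to 0.25, adjusted p = 0.633, edgeR's quasi-likelihood test with Benjamini-Hochberg adjustment, used for every adjusted p below unless another tool is named). A two-sided exact permutation test of its TPM (a level scaled for gene length and library total) within light levels gave p = 0.17, where 0.005 is the smallest p the 400 arrangements allow. Knockout and overexpression are therefore used as labels here (KO-labelled, OE-labelled), and every direction is that of the labels only.

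Depth, spread and effective gene length went with the strain label. Total counts were 14614662 to 16477032 in the KO-labelled libraries and 17132210 to 18156739 in the OE-labelled ones (two-sided exact permutation p = 0.005, adjusted p = 0.00875 over 7 such tests). The biological coefficient of variation was 7.02% in NL_OE and 8.39% in HL_OE, against 27.6% in NL_KO and 35.1% in HL_KO. On the first principal component of the 12 libraries (60.0% of the variance) the OE-labelled libraries scored 32.9 to 38.4. The KO-labelled ones scored -60.3 to -3.30, with replicate 1 of each light nearest to the OE-labelled group, and HL_KO replicate 2 stood apart on the second component. The effective length of the shortest 2% of genes, as the ratio of count to TPM relative to all libraries, was 1.31 to 1.36 in the OE-labelled libraries and 0.862 to 1.08 in the KO-labelled ones. That ratio also separated the strains without overlap (exact permutation p = 0.005, adjusted p = 0.00875), and WT lay at 0.858 to 1.00. These differences were present at both lights, so strain and library properties cannot be told apart by asking that a difference hold at both.

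The KO-labelled and OE-labelled strains differed in 2236 of 9905 tested genes at both lights and in the same direction, which is 22.6% of those tested. Of these, 1064 were higher in the KO-labelled strain (10.7% of tested genes) and 1172 were lower (11.8%). A gene counted when its difference was called, at an adjusted p under 0.05, at normal light and again at high light with the same sign. At normal light alone 3321 genes were called (33.5%), 1637 higher and 1684 lower, and at high light 3472 (35.1%), 1806 higher and 1666 lower. With light as a covariate 5224 genes were called (52.7%), 2650 higher (26.8%) and 2574 lower (26.0%), and all 2236 were among them. In 1031 of the 1064 and 1168 of the 1172 genes no KO-labelled library overlapped an OE-labelled one at either light. Over all tested genes 38.1% were free of overlap in that way in either direction, and 18.2% with the KO-labelled strain higher. The 1031 and 1168 follow in part from choosing the genes by their calls at each light. The differences were moderate: the median log2 fold change was 0.87 for the higher genes and -1.09 for the lower ones. At least 2-fold at each light was reached by 275 higher and 562 lower genes, and at least 8-fold by 17 and 30. Calls depended on single libraries: the 2236 became 1420 without HL_OE replicate 1, 1415 without HL_OE replicate 2, 1303 without NL_KO replicate 3, and 1419, 1296 and 1299 without NL_OE replicate 1, 2 and 3. Without the KO-labelled libraries that stood apart, NL_KO replicate 1, HL_KO replicate 1 or HL_KO replicate 2, it was 3069, 2596 and 2865. At normal light the 3321 became 1907 and 1743 without NL_KO replicate 2 and 3, and 2038, 1722 and 1764 without NL_OE replicate 1, 2 and 3, and at high light the 3472 became 1968, 1975 and 2197 without HL_OE replicate 1, 2 and 3. In the TPM values (limma on log2(TPM + 1)) the balance moved to the lower genes, with 705 higher and 1466 lower at both lights and 1909 higher and 3360 lower with light as a covariate. The median log2 fold change of all genes was -0.15 there, against 0.01 in the counts.

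**Figure D1:**
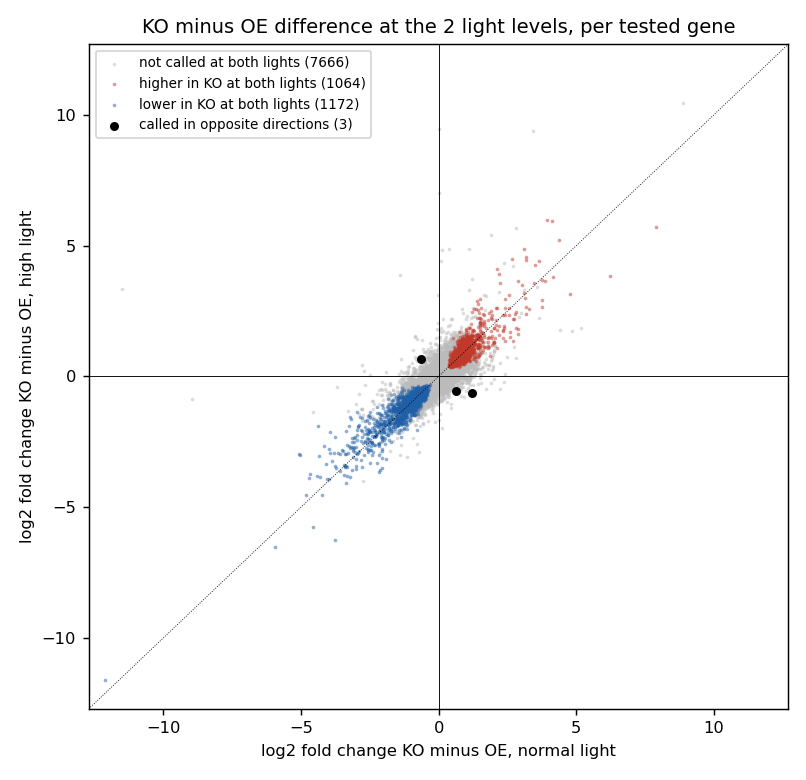
Log2 fold change KO minus OE of each tested gene at normal light (horizontal axis) and high light (vertical axis), with genes called at both lights in red (1064 higher in KO) and blue (1172 lower in KO). The coloured genes lie along the diagonal, and the 3 black points are the genes called in opposite directions.

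Among the genes called at both lights the sizes were alike at the 2 lights. For the higher genes the median log2 fold change was 0.84 at normal and 0.90 at high light, and for the lower genes -1.10 and -1.08. For genes called at normal light only the median absolute log2 fold change was 0.79 at normal and 0.35 at high light. For those called at high light only it was 0.40 and 0.81. All these medians follow in part from how the genes were chosen. When each light was fitted on its own 6 libraries, so that no library and no estimate of spread was shared, the log2 fold changes of 9782 genes correlated across genes at Pearson's r of 0.831 and Spearman's rho of 0.820. These values describe genes, which are not independent replicates. That pair of fits called 958 genes higher and 933 lower at both lights, and 1739 of these 1891 were also among the 2236.

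A gene called at only 1 light usually pointed the same way at the other. Of the 1082 genes called at normal light only, 90.0% had the same sign at high light, and of the 1233 called at high light only, 95.5% had the same sign at normal light. Among the 5351 genes called at neither light the share was 69.4%. The test of the difference itself, the interaction of strain and light, called 0 genes in edgeR, with 563 at an unadjusted p under 0.05 (5.68%). DESeq2 called 14. Without NL_KO replicate 1 edgeR called 19.

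The nuclear genes with the largest differences, and the most abundant ones, were picked among those called at both lights. They had a mean of at least 10 CPM in the higher strain at each light. A further condition was no overlap of KO-labelled and OE-labelled libraries at either light. The separation of these genes therefore follows from how they were chosen. Among those higher in the KO-labelled strain, the 8 with the largest difference rose by log2 fold changes of 2.69 to 3.84. The values of NO07G04430 were 12.7, 8.72 and 11.2 CPM in NL_KO and 1.25, 0.973 and 1.32 in NL_OE, then 13.8, 30.9 and 13.4 in HL_KO and 0.763, 0.817 and 0.845 in HL_OE. Every KO-labelled library was above every OE-labelled one, and WT, at 0.145 ± 0.086 CPM in NL_WT and 1.32 ± 1.53 in HL_WT, was low like the OE-labelled strain (log2 fold change KO minus OE 3.84, SE 0.32, adjusted p = 3.76e-06). The ID NO19G00100 was the most strongly expressed of the 8, with 782, 1316 and 1275 CPM in NL_KO against 259, 177 and 182 in NL_OE. At high light it held 1077, 3942 and 1740 CPM in HL_KO against 295, 312 and 252 in HL_OE (log2 fold change 2.69, SE 0.28, adjusted p = 1.7e-05). The WT mean of NO19G00100, 1060 ± 349 CPM at normal light, was close to the 1124 ± 297 of NL_KO. At high light it was 1170 ± 440 CPM, below the 2253 ± 1499.7 of HL_KO and above the 287 ± 31.0 of HL_OE.

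The other 6 of the higher IDs were chosen by the same rule of no overlap at either light. NO23G00090 stood at 201 ± 22 CPM in NL_KO against 26.7 ± 5.70 in NL_OE and at 594 ± 398 in HL_KO against 46.1 ± 9.58 in HL_OE (log2 fold change 3.28, SE 0.30). The wide spread in HL_KO comes from libraries at 249.6, 1029.7 and 504 CPM, all of them above the OE-labelled range. NO05G03400 stood at 349 ± 149 CPM in NL_KO against 34.7 ± 3.62 in NL_OE, and at 165 ± 68.6 against 27.7 ± 2.07 at high light (2.93, SE 0.26). For NO25G00990 the log2 fold change was 3.30 (SE 0.38), for NO07G03890 3.09 (SE 0.40), for NO10G00180 3.06 (SE 0.23) and for NO15G00390 2.76 (SE 0.38). The WT mean was above the OE-labelled mean at both lights in these 6 IDs: NO25G00990, for example, stood at 26.7 ± 5.37 CPM in NL_WT and 70.7 ± 22.4 in HL_WT against 1.65 ± 0.919 in NL_OE and 5.21 ± 1.70 in HL_OE.

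Among the 8 nuclear genes with the largest decrease in the KO-labelled strain, by the same minimum of 10 CPM and rule of no overlap, NO10G03460 was detected in the OE-labelled libraries only. Its counts were 686, 548 and 565 in NL_OE and 296, 403 and 613 in HL_OE, and 0 in each of the 6 KO-labelled and 6 WT libraries. Taking 3 counts in each KO-labelled library as the floor, it was at least 158-fold lower in the KO-labelled strain at normal light and at least 115-fold lower at high light. This floor accounts for counting error alone, because the reads carry no molecular identifiers. NO10G03460 is uncertain as a single gene: nearby ID numbers from NO10G03430 to NO10G03620 have counts that match another ID within 5% in all 18 libraries, although its own counts match none.

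The other 7 of these IDs, chosen for no overlap at either light, had log2 fold changes between -3.72 and -3.16. NO20G02140 held 19.4, 20.4 and 19.9 CPM in NL_KO against 157, 166 and 143 in NL_OE, and 21, 34.1 and 12.9 in HL_KO against 223, 282 and 265 in HL_OE. Its WT libraries, at 16.5 ± 3.37 CPM in NL_WT and 9.27 ± 3.85 in HL_WT, were at or below the KO-labelled level (log2 fold change -3.26, SE 0.20, adjusted p = 1.43e-06). NO13G03220 held 14.0, 28.1 and 18 CPM in NL_KO against 201, 186 and 208 in NL_OE, and 21.9, 1.28 and 5.71 in HL_KO against 146, 142 and 113 in HL_OE (-3.56, SE 0.45, adjusted p = 5.61e-05). WT was again low, at 30.1 ± 11.8 and 14.5 ± 9.57 CPM. By contrast, NO08G03050 put WT between the strains, with 2.13 ± 0.405 CPM in NL_KO, 9.39 ± 0.551 in NL_WT and 18.6 ± 1.86 in NL_OE, and with 1.55 ± 0.83, 9.62 ± 1.91 and 18.5 ± 0.825 in the same order at high light (-3.36, SE 0.24, adjusted p = 2.28e-06). The remaining 4 were NO16G03070 (-3.72, SE 0.38), NO14G01410 (-3.59, SE 0.30), NO07G04000 (-3.59, SE 0.39) and NO02G05660 (-3.16, SE 0.20). NO02G05660 belongs to the shortest genes, with an effective length of 0.035 of the median, a class described further on.

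**Figure D2:**
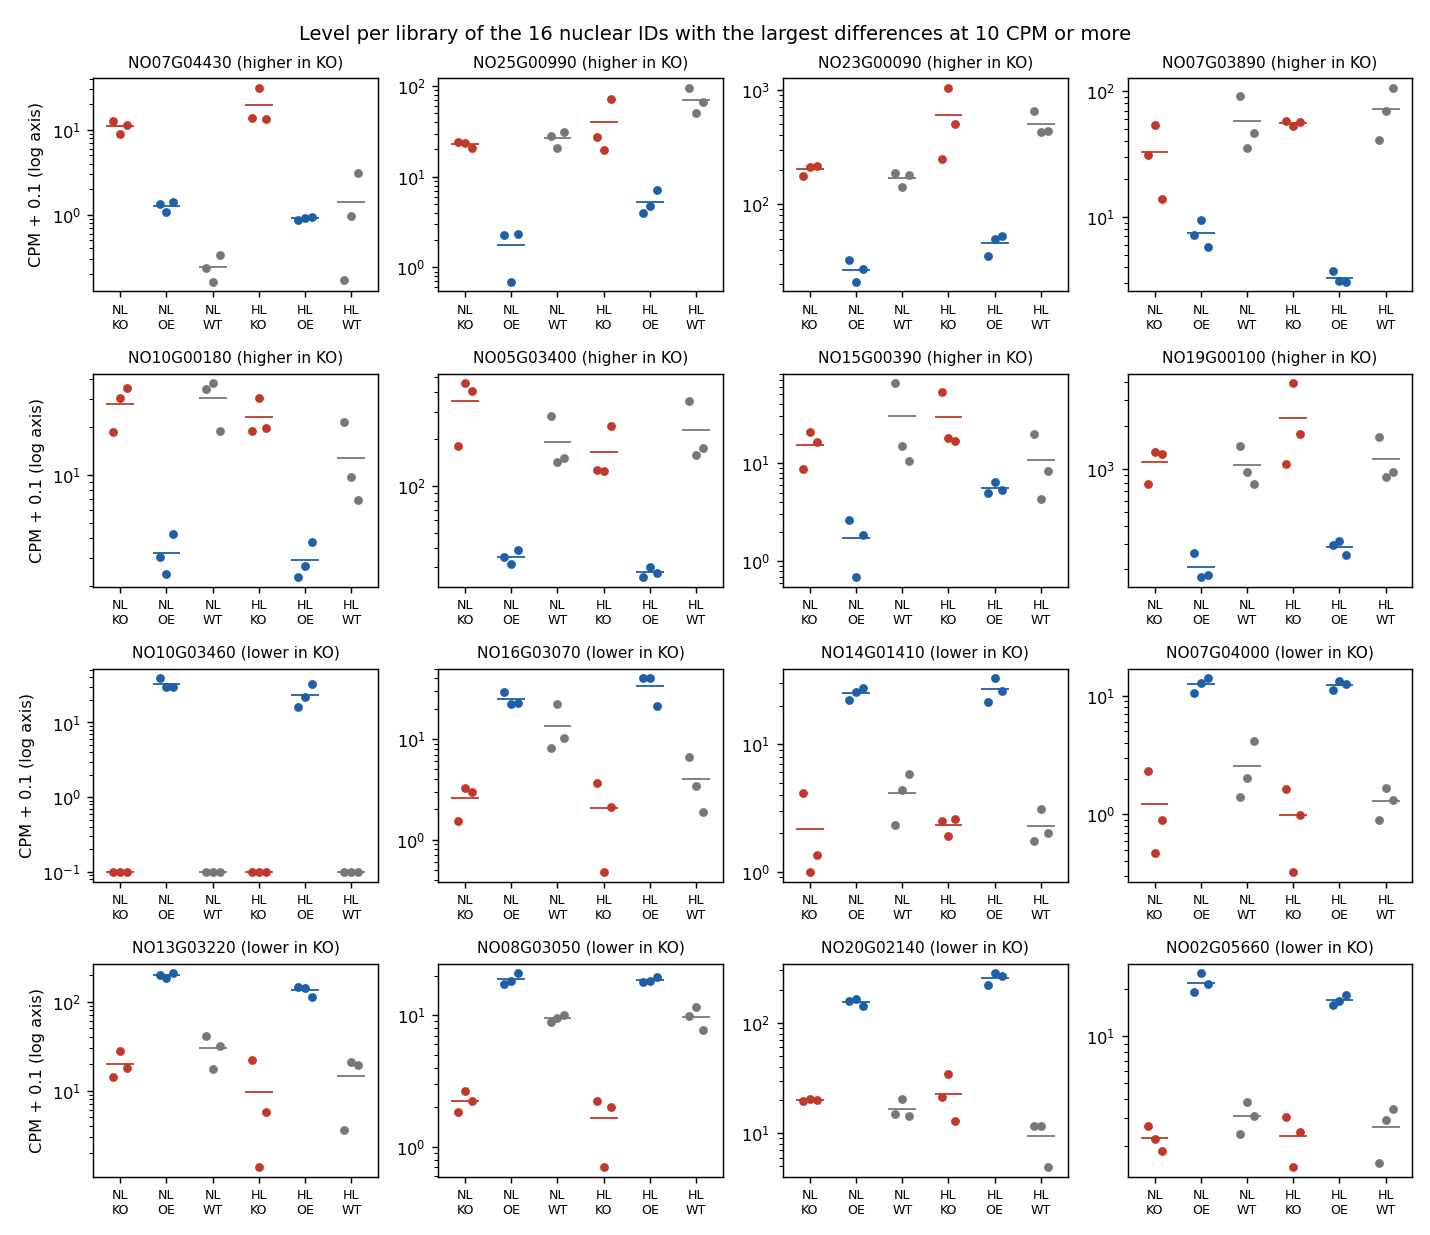
CPM plus 0.1 (log axis) in each library for the 16 nuclear IDs with the largest differences at 10 CPM or more in the higher strain, with red for KO, blue for OE and grey for WT libraries, and a line at each group mean. The IDs were chosen so that red and blue points do not overlap at either light, and NO10G03460 sits at 0 CPM in every KO and WT library.

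The most abundant genes of each direction changed less. Highest by TPM among the higher genes was NO09G00450, with 10521, 15130 and 15667 CPM in NL_KO against 4221, 4579 and 4775 in NL_OE. At high light it held 11395, 19377 and 19788 CPM against 6097, 7157 and 7032 (log2 fold change 1.44, SE 0.16, adjusted p = 2.6e-05). It was followed by NO06G02470 (0.71, SE 0.13, adjusted p = 0.00079) and NO18G00330 (1.29, SE 0.14, adjusted p = 1.84e-05). All 3 were picked among genes with no overlap at either light. On the length-scaled TPM, NO09G00450 stood at 10532 ± 1583 in NL_KO against 3966 ± 251 in NL_OE. Among the lower genes the 3 most abundant by TPM were NO28G00190 (-1.03, SE 0.13), NO21G01530 (-0.68, SE 0.12) and NO10G02500 (-1.22, SE 0.21, adjusted p = 0.000477). All 3 are short, with effective lengths of 0.150, 0.140 and 0.046 of the median gene. With an offset for each library's effective length, chosen after seeing the data, NO10G02500 was no longer called (-0.41, adjusted p = 0.0682, edgeR), while NO28G00190 (-0.72) and NO21G01530 (-0.34) were.

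Wild-type levels lay mostly nearer to the KO-labelled strain. On a scale where the OE-labelled mean is 0 and the KO-labelled mean is 1, in log2 CPM, the median WT position of the 1064 higher genes was 0.703 at normal and 0.833 at high light. For the 1172 lower genes it was 0.736 and 0.897. WT was on the KO-labelled side of the midpoint in 76.8% of the higher and 83.6% of the lower genes at normal light, and in 80.4% and 92.4% at high light. The position describes levels and was not tested. In the effective length of the shortest genes WT also lay with the KO-labelled libraries, at 0.858 to 1.00 beside 0.862 to 1.08. The OE-labelled libraries lay at 1.31 to 1.36. Strain and library properties therefore cannot be told apart in the WT position.

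The organelle genes called between the strains were higher in the KO-labelled libraries, but most of those tested passed the filter on low counts only with the KO-labelled libraries. Of 160 organelle genes, 49 passed the filter on low counts, 32 of the plastid and 17 of the mitochondrion. With light as a covariate 46 of the 49 were higher and 0 lower (over all tested genes 26.8% were called higher), with a median log2 fold change of 2.62 against 0.01 for all tested genes. At both lights 24 of the 49 were called, 12 from each organelle (over all tested genes 10.7% were higher at both lights), and 27 had no overlap at either light (18.2% of all tested genes). These counts and the median are descriptions. On the OE-labelled libraries alone 29 of the 49 would not have passed the filter, so those genes could hardly come out lower. Of the 20 that would have passed, 17 were called higher with light as a covariate and 7 at both lights. In 16 of the 49 no OE-labelled library held more than 5 counts. A gene rare in both strains was not tested, so the 49 do not stand for all 160, and the highest count of an organelle gene left out was 73. The calls depended on the settings: with a filter at 5 CPM in 3 libraries 6 organelle genes were tested and 4 called at both lights, and the number called was 12 when each light was fitted alone and 28 with DESeq2. Leaving out HL_OE replicate 1 or 2 gave 10 each, leaving out NL_OE replicate 1, 2 or 3 gave 15, 14 and 13, and leaving out NL_KO replicate 2 or 3 gave 13 and 14. Without NL_KO replicate 1, HL_KO replicate 1 or HL_KO replicate 2 the number was 32, 33 and 18. The sizes depended on the settings as well: with limma on log2(TPM + 1) the log2 fold change of cp-secA fell from 4.60 to 1.10, of cp-ilvB from 3.39 to 1.08 (both without the filter), of cp-rpoA from 4.63 to 1.35 and of cp-ycf59 from 3.94 to 1.36. That of mt-rps2 rose from 4.54 to 6.27 without HL_OE replicate 3. The labels give the RNA as polyA RNA, and how much of an organelle transcript such a selection keeps was not tested.

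Among genes of plastid gene expression, tufA, which encodes the elongation factor that brings aminoacyl-tRNA to the plastid ribosome, had the most counts. It held 6.60, 11.4 and 18.9 CPM in NL_KO against 1.59, 1.68 and 0.95 in NL_OE, and 4.15, 24.2 and 17.3 in HL_KO against 0.49, 0.327 and 0.686 in HL_OE. No library overlapped, and the log2 fold change of cp-tufA was 3.89 (SE 0.50, adjusted p = 6.24e-05). The RNA polymerase subunit gene rpoA (4.63, SE 0.68) and the ribosomal protein genes rpl21 (3.28, SE 0.62) and rps10 (3.17, SE 0.65) were called at both lights as well. Of 43 plastid ribosomal protein genes 6 were tested, and all 6 were higher with light as a covariate, 2 of them at both lights. Over all tested genes 26.8% were called higher with light as a covariate and 10.7% at both lights. None of the 6 held more than 9 counts in any OE-labelled library, so they could hardly come out lower. Counts of rpoA were at most 2 in any OE-labelled library, so the size of that fold change rests on few reads.

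Of the photosynthesis genes tested, psbD and atpI were called at both lights. Over all tested genes 26.8% were called higher with light as a covariate and 10.7% at both lights. Of the 4 tested photosystem II genes 2 were called higher and 1, psbD (the D2 reaction centre protein), at both lights (2.15, SE 0.47, adjusted p = 0.00207). The most abundant organelle gene, psbA, encodes the D1 reaction centre protein that is damaged by light and replaced. Its libraries held 31.9, 140.3 and 106 CPM in NL_KO and 22.8, 15.5 and 86.0 in NL_OE, and 28.4, 37.5 and 40.8 in HL_KO and 28.4, 19.0 and 48.4 in HL_OE. These ranges overlapped at both lights, and cp-psbA was not called (0.64, SE 0.45, 95% interval -0.33 to 1.60, adjusted p = 0.245). Both tested photosystem I genes, psaA and psaB, were higher with light as a covariate (1.52 and 1.43) but not at high light alone. The large subunit of Rubisco, rbcL, was called with light as a covariate (1.18, SE 0.40, adjusted p = 0.0236) and at neither light alone. Of the 4 tested plastid ATP synthase genes 3 were higher, atpI at both lights (2.76, SE 0.64). Those 3, atpB, atpF and atpI, held at most 7 counts in any OE-labelled library and could hardly come out lower. The other, atpA, was not called with light as a covariate (1.02, SE 0.53, adjusted p = 0.120).

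Other plastid genes called at both lights included ycf59 (3.94, SE 0.75) and ycf54 (6.14, SE 1.10), which encode subunits of the oxidative cyclase of chlorophyll synthesis, as known from cyanobacteria and plants. The counts of ycf54 were 5, 21 and 49 in NL_KO and 3, 138 and 33 in HL_KO, against 0 in each NL_OE library and 1, 0 and 3 in HL_OE. At high light HL_KO replicate 1 and HL_OE replicate 3 both held 3 counts of cp-ycf54 and were set apart by the scaling alone, at 0.183 and 0.158 CPM, and the size of the fold change rests on few reads. The protein translocase gene secA (4.60, SE 0.64), the acetolactate synthase gene ilvB of branched-chain amino acid synthesis (3.39, SE 0.61), the chaperone gene dnaK (2.12, SE 0.39) and ycf46 (2.95, SE 0.53) were the others. Counts of secA, ilvB and ycf59 were at most 5, 4 and 3 in any OE-labelled library. These genes could hardly come out lower, and the sizes of their fold changes rest on few reads.

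**Figure D3:**
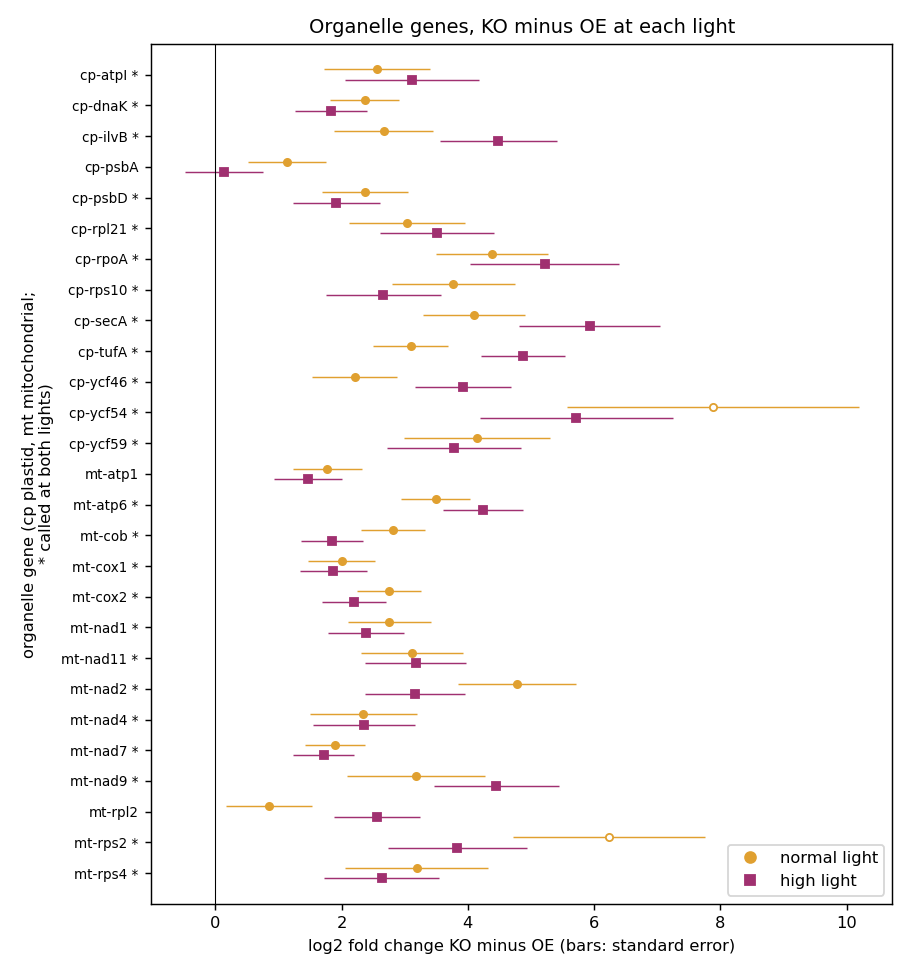
Log2 fold change KO minus OE with its standard error for 27 organelle genes, the 24 called at both lights (stars) and the other 3 named for their abundance (psbA, atp1 and rpl2), at normal light (circles) and high light (squares); open symbols mark an OE group with 0 counts. All values lie above 0, which for the 24 follows from how they were chosen, and that of psbA at high light lies nearest to it. Among the tested organelle genes not shown, psbB was below 0 at high light (-0.24, SE 0.71, not called).

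All 17 tested mitochondrial genes were called higher with light as a covariate, and 12 of them at both lights. Over all tested genes these shares were 26.8% and 10.7%. Of the 17, 9 would not have passed the filter on the OE-labelled libraries alone. Of complex I, the NADH dehydrogenase, 7 of 7 tested genes were higher and 6 at both lights, from nad7 (1.81, SE 0.33) to nad9 (3.91, SE 0.72). Counts of nad9 were at most 1 in any OE-labelled library, so the size of that fold change rests on few reads. Of the 6, nad4 overlapped between the strains at high light. The cytochrome b gene cob of complex III (2.32, SE 0.37) and 2 of 3 genes of complex IV, the cytochrome c oxidase, were called at both lights. The most abundant of these, cox1, held 6.19, 22.8 and 13.2 CPM in NL_KO against 3.74, 2.86 and 3.69 in NL_OE, and 7.44, 22 and 7.35 in HL_KO against 2.89, 2.07 and 4.91 in HL_OE. No library overlapped, and mt-cox1 differed by a log2 fold change of 1.93 (SE 0.36, adjusted p = 0.000805). The ATP synthase gene atp6 had the lowest adjusted p among the tested mitochondrial genes (3.79, SE 0.41, adjusted p = 2.14e-05). Counts of atp6 were at most 7 in any OE-labelled library, so it could hardly come out lower. It held 2.02, 3.06 and 3.29 CPM in NL_KO against 0.227, 0.108 and 0.369 in NL_OE. At high light it held 2.13, 1.43 and 1.99 CPM in HL_KO against 0, 0.109 and 0.158 in HL_OE. The other ATP synthase gene tested, atp1, was called with light as a covariate (1.62, SE 0.37) and at normal light but not at high light (adjusted p = 0.0515). Of the ribosomal protein genes, rps2 (4.54, SE 0.82) and rps4 (2.84, SE 0.69) were called at both lights and rpl2 (1.72, SE 0.53) at high light only. Counts of rps2 were at most 2 in any OE-labelled library, so its fold change also rests on few reads.

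Organelle transcripts also took a larger share of the KO-labelled libraries. Mitochondrial counts made up 33.6 to 105.9 CPM of a KO-labelled library's total (mean 60.5 ± 30.8, SD, n = 6) and 10.3 to 22.7 of an OE-labelled one (14.3 ± 4.47). For these shares CPM are taken of the plain total, with no scaling factor. The ranges did not overlap (two-sided exact permutation within lights, p = 0.005, which is the smallest these arrangements can give; 0.00875 when adjusted over 7 tests). Plastid counts made up 153 ± 82.3 against 59.7 ± 35.5 in the same unit, and here the ranges overlapped (exact permutation p = 0.035, adjusted 0.0408). The organelle total stood at 213 ± 102 against 74.0 ± 38.0 (exact permutation p = 0.02, adjusted 0.028). Its ranges overlapped, with a lowest KO-labelled library at 100 and a highest OE-labelled one at 138. Without psbA, the most abundant organelle gene, that total stood at 153 ± 70.0 against 35.5 ± 12.5 (exact permutation p = 0.005, adjusted 0.00875). Since psbA was itself not called and its ranges overlapped, leaving it out removes overlapping counts. The smaller p is therefore no separate support for a difference. The WT mean of 36.6 ± 15.8 mitochondrial CPM lay between the means of the strains, and the WT libraries, at 23.1 to 67.8, overlapped the KO-labelled range. In bulk RNA a change in organelle RNA per cell, in organelle number and in how much organelle RNA the selection kept cannot be told apart.

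**Figure D4:**
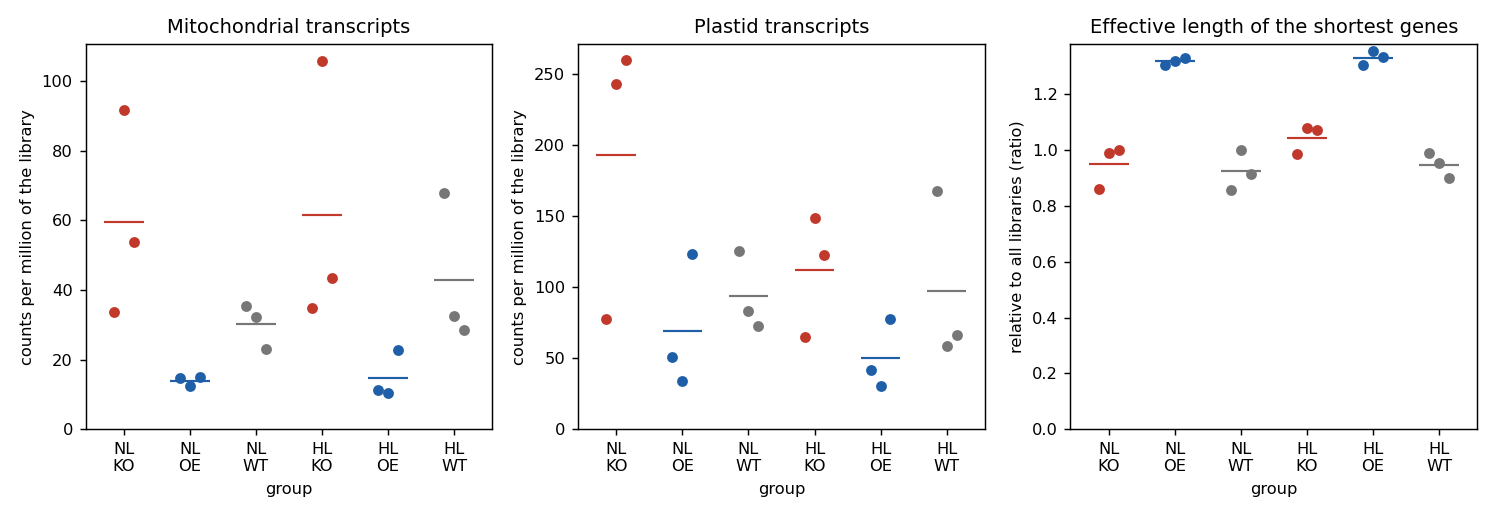
Mitochondrial and plastid counts in CPM of the library total, and the effective length of the shortest genes relative to all libraries, with 1 point per library and a line at each group mean (red KO, blue OE, grey WT). Mitochondrial counts of the KO libraries lie above all OE libraries, plastid counts overlap, and effective length is above 1.3 in every OE library.

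Calls in each direction were unevenly spread over gene length. The higher genes had a median of 65.0 TPM and the lower ones 41.8 TPM, against 49.1 TPM over all tested genes. Of the 90 tested genes with at least 1000 TPM, 15 were higher and 2 lower in the KO-labelled strain at both lights. In the highest of 10 equal bins of mean TPM, however, 14.3% were higher and 10.9% lower, against 10.7% and 11.8% over all tested genes. In the shortest 5% of genes by effective length 32.7% were lower at both lights and 2.02% higher, with a median log2 fold change of -0.92. It holds the genes over which the effective-length ratio of the libraries was taken. With the effective-length offset 18.1% of it were lower and 6.85% higher, and the median was -0.36. In the longest 5% of genes 17.7% were lower and 5.24% higher, and 21.4% and 3.23% with the offset.

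**Figure D5:**
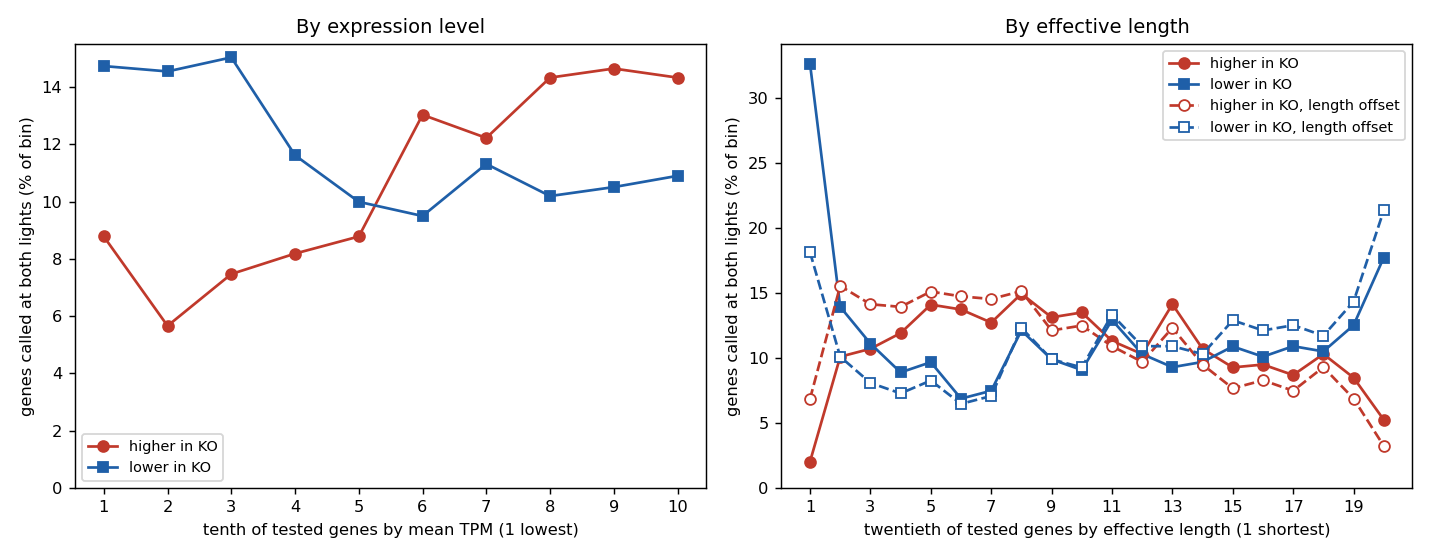
Share of genes called at both lights as higher (red) or lower (blue) in KO, in 10 equal bins of mean TPM (left) and 20 of effective length (right), where open symbols are the fit with an effective-length offset. The lower genes peak at 32.7% in the shortest bin and drop to 18.1% there with the offset.

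Called genes were somewhat more often next to each other in ID number. The next tested ID was higher as well for 15.7% of the higher nuclear genes, where 10.6% of all nuclear IDs were higher, and was lower for 16.7% of the lower genes, where 11.9% were lower. The longest runs were 5 consecutive IDs: NO19G00060 to NO19G00100 were all higher, by log2 fold changes of 0.80 to 2.69, NO22G00430 to NO22G00470 were lower by values of -4.70 to -0.73, and NO02G03960 to NO02G04000 by -2.21 to -0.86. Of the 20 tested IDs nearest to NO07G02030, 4 were higher at both lights (NO07G01960, NO07G01970, NO07G01990 and NO07G02070, the last by a log2 fold change of 0.77) and 1 lower. The lower one, NO07G02080, was lower in the KO-labelled strain at both lights (-1.95 at normal and -1.84 at high light, with light as a covariate -1.89). These runs and neighbours are descriptions with no test.

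Only 3 genes were called at both lights in opposite directions. NO02G00260 was lower in the KO-labelled strain at normal light, with 253, 352 and 276 CPM against 437, 489 and 412, and higher at high light, with 671, 584 and 586 against 394, 342 and 397. NO08G04110 went the other way, with 16, 27 and 19.6 CPM against 9.41, 8.10 and 8.65 at normal and 10.4, 8.14 and 9.35 against 16.1, 15.1 and 11.4 at high light. Neither overlapped at either light. The third, NO07G04030, overlapped at normal light. The interaction test adjusted over all genes called none of them (adjusted p = 0.401, 0.401 and 0.645), and all 3 were singled out after their values were seen.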

How the data were processed

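PolyA RNA, per the labels, was sequenced as paired reads of 150 bases. Trim Galore, STAR, Picard and Salmon are named in the submitters' processing notes; their versions, the build and the annotation were not stated. The deposited expected counts are the authors' estimated counts per gene and library, not normalized, and were rounded. The deposited TPM values are the authors' counts scaled for length and library. Counts of the 12 KO and OE libraries entered edgeR 4.0.16 under R 4.3.3 (TMM scaling, filterByExpr, robust quasi-likelihood), which left 9905 of 10493 genes. A model of light plus strain gave the difference with light as a covariate; a model of 4 group means gave each light and the interaction. P values were adjusted by Benjamini-Hochberg across the tested genes and called under 0.05. Printed CPM of single genes use TMM factors from all 18 libraries, and the organelle shares use the plain library total. Depth was 14614662 to 18156739 counts, so genes with few counts are imprecise. Whether the biological replicates were separate from the start of culture is not stated, so p values measure the spread between these libraries. No pair of replicates agreed within sampling noise. All 160 organelle symbols matched the reference table (assembly GCA_051622145.2), which holds no names for nuclear IDs, and organelle lists were formed by symbol.

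Members, lists and tests were chosen with earlier results of these data known. Named nuclear genes were called at both lights and with light as a covariate, had at least 10 CPM in the higher strain and no overlap at either light: the 8 largest changes and the 3 highest TPM in each direction. Named organelle genes were those called at both lights and the 3 most abundant per compartment; further list members are examples, and some genes are not reported here. Alternatives were RLE scaling, DESeq2 1.42.0, other filters, a replicate block, all 18 libraries, limma 3.58.1 (voom with a variance per group; log2(TPM + 1) and log2(TPM + 0.1)), each light alone and each library left out; the effective-length offset was chosen after seeing the data. The calculation was tested on simulated data.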

Additional observations from a re-analysis of the deposited data

Results flagged for a closer look

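NO02G00260 drew attention because its KO minus OE difference pointed down at normal light and up at high light with no overlap between the libraries at either. The high light minus normal light difference was 1.31 on the log2 scale (unadjusted p = 4.81e-05, adjusted p = 0.401, edgeR), so the test of the difference was not passed. NO08G04110 did the reverse, with -1.86 (unadjusted p = 8.1e-05, adjusted p = 0.401, edgeR). Neither was called with light as a covariate.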

How the results depend on the processing

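With 1 library left out at a time, the genes called with light as a covariate ranged from 4610 to 6065, at normal light from 1722 to 4757, at high light from 1968 to 4569 and at both lights from 1296 to 3069. The interaction ranged from 0 to 19 and the organelle genes called at both lights from 10 to 33. Of the 2236 genes, 890 (39.8%) were called at both lights in each of the 12 leave-outs, and 5 organelle genes were. None of the 2236 reversed its direction and was called at both lights in any alternative run. Across the other alternatives 563 higher and 679 lower genes were called at both lights in each. DESeq2 called 14 genes for the interaction. The main fits share a spread per gene between strains whose spread differed. With a variance per group (limma voom) 3987 genes were called at normal light, 2624 at high light and 2064 at both. Organelle genes called at both lights fell to 4 with the filter at 5 CPM, to 12 with each light fitted alone and to 16 with a variance per group. The share of higher genes among calls with light as a covariate was 50.7%; limma on log2(TPM + 1) gave 36.2%, and the cause was not tested. NO07G02030 stayed uncalled, at -0.31 to 0.00013, the latter without NL_KO replicate 2. Of the named genes, only NO10G02500 lost its call with light as a covariate, under the effective-length offset (-0.41), which rescales short genes by construction, and 31 of the 52 named genes other than NO07G02030 passed the filter at 5 CPM. Replicate numbers share only a number: deviations of 18 same-numbered pairs correlated at -0.297 to 0.522, with 6 above 0.1, and 4 of 12 libraries correlated best with their own number. With the number as a replicate block 5238 genes were called with light as a covariate and 2343 at both lights. Low counts limit the organelle genes: 24 of the 49 tested had under 10 counts in every OE-labelled library, although these libraries were the deeper ones.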
